A study of Mus musculus with 6 samples.

Results

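The stress and hyperproliferation keratins examined here were Krt6a, Krt6b, Krt16, Krt17 and Krt75, taken by gene name from the annotation of a mouse whole-genome expression array. They were 5 of the 34298 gene names on the array and 5 of its 54 keratin genes, and 6 of its 55681 probes were assigned to them. RNA came from 3D epithelial organoids, cultures of epithelial cells grown in Matrigel, of the esophagus (labelled squamous) and of the stomach (labelled columnar). The labels number the mice 1, 2 and 4 in both tissues, read here as the same 3 animals although no source states it outright, with 1 array per tissue and mouse, at passage 0. All 6 samples carry the label control. All cultures were harvested on day 8, except the stomach culture of mouse 4, which was harvested on day 7. According to the study's methods, stomach organoids grew from whole glands of the corpus in medium with WNT3A, R-spondin1 and gastrin, and esophageal organoids grew from cells of enzymatically dissociated esophagus in medium without these and with forskolin. Both media held EGF, noggin, FGF-10 and inhibitors of the TGF-β receptor and of ROCK. Tissue, isolation and medium therefore changed together and cannot be told apart. The methods name wild-type C57BL/6 female mice, and the labels give neither genotype nor age for these 3 animals. In such bulk RNA, fewer cells of a type and less RNA per cell cannot be told apart either.

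Keratins are the intermediate filament proteins of epithelial cells, and each filament is built from pairs of an acidic type I and a basic type II keratin. Krt6a, Krt6b and Krt75 are type II keratins, and Krt16 and Krt17 are type I keratins. Krt6a, Krt6b and Krt16 are induced in skin keratinocytes after wounding and in hyperproliferative disease, Krt17 marks basal and appendage keratinocytes and is likewise induced by injury, and Krt75 is the type II keratin of the companion layer of the hair follicle. Several of them are also made without injury in squamous linings such as that of the mouth and the esophagus, beside the basal pair Krt5 and Krt14 and the suprabasal pair Krt4 and Krt13.

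All 6 probes were 60 bases long and matched a RefSeq transcript of the named gene. The sequences are shown because Krt6a and Krt6b encode near-identical proteins, so that what each probe can tell apart decides how its value is read. The scanner annotation places the Krt6a probe on chromosome 15 of build mm9 (chr15:101520862-101520921), the 2 Krt6b probes at chr15:101506492-101506551 and chr15:101509450-101509509, and the Krt75 probe at chr15:101393774-101393833. It places the Krt16 probe on chromosome 11 (chr11:100107408-100107467) and the Krt17 probe 10127 bases from it (chr11:100117535-100117594), and all 6 lie on the minus strand. Exon and UTR positions were not analysed here. One Krt6b probe listed transcripts of both Krt6a and Krt6b and is called the shared probe below. It is printed whole, and its sequence has 1 reading frame with no stop codon. The other 5 probes each listed 1 member's transcript and are shown by a stretch of 30 bases, written 5′ to 3′ as the annotation gives them:
Krt6a: agcaagaagagctacaggcagtgaattctg
Krt6b: cttgtgacaacacagtcattagtcctgtgc
Krt6b, shared probe: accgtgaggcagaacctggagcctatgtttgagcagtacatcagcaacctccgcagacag
Krt16: ggtaggctAATAAAgctttttggttgatgc
Krt17: ttctgaacactgaAATAAAtgaccatggtg
Krt75: ggcaaaaacatccaatgttggaaggtaaac
The capitals mark AATAAA, the hexamer best known as a polyadenylation signal, searched on the printed strand only. The Krt16 and Krt17 stretches are the last 30 bases of their probes, where the hexamer begins at base 39 and base 44, and the other stretches are the first 30 bases. AATAAA was present in 10.1% of the 55681 probes of the array. The best ungapped match between any pair of the 6 probes covered 16 to 23 of 60 bases, and no other probe of the array shared a run of 16 bases with them. The Krt6a and Krt6b probes matched each other at 21 of 60 bases, so these 2 probes differ in sequence. The shared probe, which lists both genes, also matched the Krt6a probe at only 21 bases. Probes were compared only with each other, so whether the Krt6a or Krt6b probe also binds the other gene's transcript was not tested. The shared probe cannot separate the 2 genes.

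Krt6a, Krt6b, Krt16 and Krt17 were higher in esophageal than in stomach organoids, and Krt75 did not pass the test. Of the 6 probes, 5 passed, all of them higher in the esophagus, where 5.94% of all probes on the array were called in that direction (limma, Benjamini-Hochberg adjusted p under 0.05). The same 5 probes had all 3 esophagus arrays above all 3 stomach arrays, as did 15.2% of all probes with a value on every array. The same 5 also met the threshold of the study's methods, a p under 0.05 with a change of at least 1.5-fold, read here as an unadjusted p, as did 9.28% of all probes. Values below are the authors' normalized log2 intensities, so a difference of 1 is a 2-fold change. A permutation test of 3 arrays against 3 cannot give a p below 0.1, so the tests are those of limma fitted across all probes.

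The Krt6a probe read 16.53, 16.61 and 15.79 in the esophagus of mice 1, 2 and 4, and 4.83, 4.75 and 4.99 in the stomach. The 3 stomach arrays lay together at the array's background, and the lowest esophagus array stood 10.80 above the highest of them. The difference was 11.45 (SE 0.23, adjusted p = 1.12e-07). Because no stomach array was well above background for this probe, the change is given as a lower bound of at least 2673-fold. In this and the following bounds, the values of the dimmer tissue, here the stomach, were replaced array by array. Each was set to the higher of the probe's own value and the lowest value of any probe well above background on that array. In the stomach of mice 1, 2 and 4 this lowest value was 4.49, 4.95 and 4.72. The Krt6a readings of mice 1 and 4 lay above it without being well above background, so it is not a detection limit. Bounds given without an offset hold for the deposited values only. These folds move with the treatment of background, and with an offset of 50 added to the scanner intensities the bounds were 1109-fold for Krt6a, 1118-fold for Krt6b, 117-fold for the shared probe and 898-fold for Krt17.

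The Krt6b probe read 16.67, 16.90 and 15.35 in the esophagus and 4.85, 4.79 and 5.31 in the stomach. Its difference was 11.32 (SE 0.39, adjusted p = 1.27e-06), or at least 2466-fold. As with Krt6a, no stomach array was well above background and mouse 4 gave the lowest esophagus value. The shared probe read 13.28, 13.66 and 12.03 in the esophagus and 4.56, 4.56 and 4.83 in the stomach. It differed by 8.34 (SE 0.38, adjusted p = 6.13e-06), or at least 296-fold, and the 3 mice fell in the same order on this probe as on the Krt6a and Krt6b probes, so the order does not separate the 2 genes. Intensities of different probes are not on a common scale, so the lower reading of the shared probe says nothing on the amount of either transcript.

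Among the type I members, the Krt16 probe read 16.68, 16.92 and 14.83 in the esophagus and 6.55, 6.52 and 7.01 in the stomach. Krt16 differed by 9.45 (SE 0.51, adjusted p = 1.4e-05), a 701-fold change. It was the only one of the 6 probes well above background on all 3 stomach arrays, so this fold is a measured value and not a bound. The Krt16 fold still moved with the treatment of background, from 480-fold with an offset of 50 to 918-fold on the processed signal of the scanner software. On the deposited values without the esophagus of mouse 4 it was 1106-fold. The Krt17 probe read 16.25, 15.69 and 16.02 in the esophagus and 4.69, 4.43 and 4.49 in the stomach, where all 3 arrays were at background. The Krt17 difference was 11.45 (SE 0.18, adjusted p = 4.31e-08), or at least 2350-fold, and its 3 esophagus values lay closest together among the 5 called probes (SD 0.28).

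Krt75 stood apart from the other 4 genes. Its probe read 5.35, 5.69 and 4.65 in the esophagus and 5.10, 5.05 and 4.90 in the stomach, so the groups overlapped. The difference was 0.21 (SE 0.26, adjusted p = 0.706). The probe was well above background on 1 of 6 arrays, that of the esophagus of mouse 2, and at this brightness a low level of Krt75 could not be detected on the other 5.

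**Figure D1:**
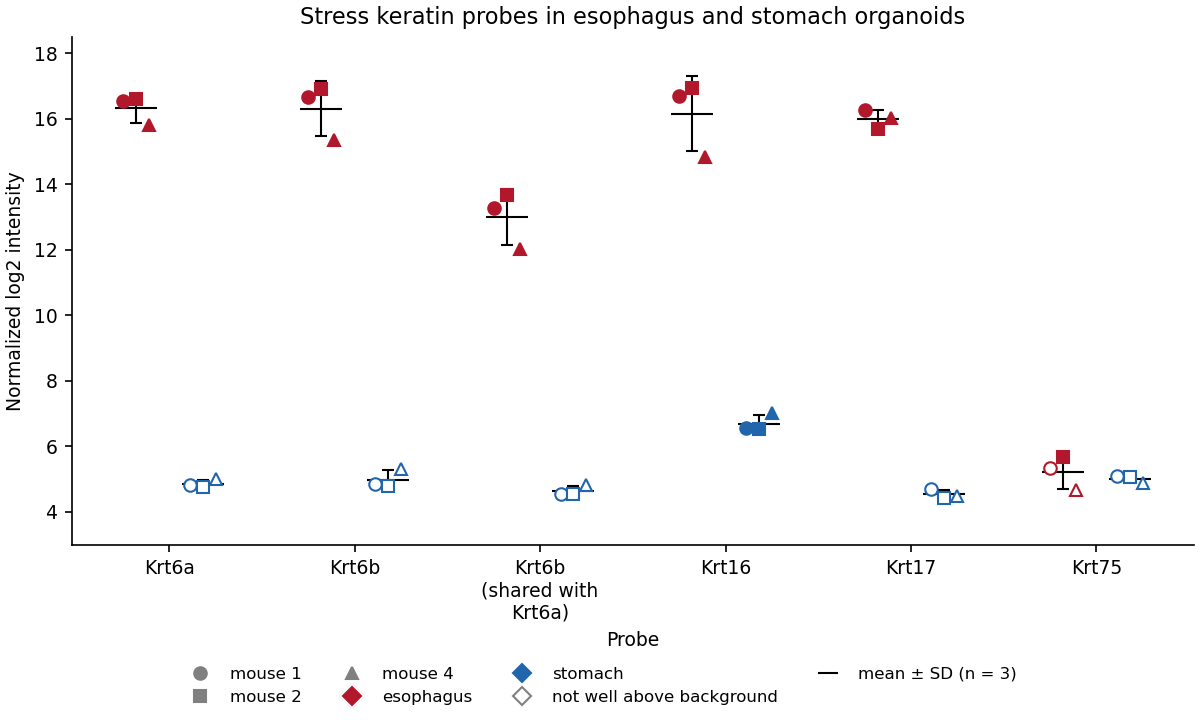
Normalized log2 intensity of the 6 stress keratin probes (vertical axis) on each of the 6 arrays, with red symbols for esophagus, blue for stomach, symbol shapes for mice 1, 2 and 4, open symbols for values not well above background, and black bars for the mean ± SD of 3 arrays. The tissues are separated for Krt6a, both Krt6b probes, Krt16 and Krt17, overlap for Krt75, and Krt16 is the probe with filled stomach symbols.

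The labelled tissues matched their markers. Of 6 squamous markers, 5 were higher in the esophagus by the brightest probe of each gene, among them Krt5, by 11.93 with 1 of 3 stomach arrays well above background, and Col17a1, a hemidesmosome collagen, by at least 747-fold. The exception was Trp63, the squamous lineage factor p63, whose brightest probe was lower in the esophagus (-1.22, adjusted p = 0.0249) while its other 3 probes were higher by at least 49.6-fold, 92.0-fold and 299-fold. Of 11 columnar stomach markers, 10 were higher in the stomach, among them Tff1, a trefoil peptide of surface mucous cells (-12.34), and Krt8 (-11.24), each well above background on 1 of 3 esophagus arrays, and Epcam did not pass. Among all gene names, 7.15% passed with the esophagus higher and 7.7% with the stomach higher. A short list without any call cannot be set apart from these shares. None of 9 fibroblast and muscle markers and none of 7 immune and endothelial markers passed in limma (1 and 2 had an unadjusted p under 0.05). Their summed linear intensities ran from 261 to 365 in the esophagus and 279 to 298 in the stomach for the fibroblast and muscle markers, of which 5 of 9 were well above background on any array, and Lum, Pdgfra, Des and Myh11 were at background on all 6. For the immune and endothelial markers the sums ran from 3909 to 28348 and from 2442 to 5791, most of it from Cd68. Of these 7 markers, Cd68, Cd3e (7.23 to 8.34) and Pecam1 (5.80 to 6.37) were well above background on all 6 arrays, and the other 4, among them the pan-leukocyte marker Ptprc, were at background on all 6.

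The stomach signal of Krt16 is set beside the 6 squamous markers on the same arrays. Krt16 was highest in the stomach of mouse 4 (7.01 against 6.55 and 6.52). This culture was the only one harvested on day 7, so mouse, culture and day cannot be told apart in the comparisons below. Krt5 read 4.85, 5.19 and 5.39 in the stomach of mice 1, 2 and 4 and was well above background on 1 of these arrays, and Krt14 read 5.20, 5.25 and 5.50 and was so on 2 of them. Itgb4, an integrin of hemidesmosomes, read 12.88, 12.81 and 13.04. The brightest Trp63 probe went the other way and was lowest in mouse 4 (11.39, 11.66 and 10.57), while its other 3 probes, Dsg3 and Col17a1 were at background on all 3 stomach arrays. The following genes come from other lists and were chosen after the values were seen. Krt15 read 5.30, 5.05 and 6.22 and was well above background on 1 stomach array, Krt4 read 5.36, 5.52 and 6.20 and was so on 2, and Krt13 read 5.38, 5.12 and 6.35 by its brightest probe and was so on 2. The other Krt13 probe, with signal above background in all 3 stomach cultures, was lowest in mouse 4 (8.19, 8.50 and 7.57). The desmosomal Pkp1, well above background on all 3, read 7.85, 7.82 and 9.90. Of the other genes that anchor keratin filaments, by the brightest probe, Dsp, Ppl and Plec were also highest in the stomach of mouse 4. Evpl (12.6, 12.5 and 11.7) and Dst (8.5, 8.4 and 8.1) were lowest there, and Jup was neither. The part of squamous cells in the stomach signal of Krt16 was not tested.

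Within the keratin family, the 4 called members lay at the esophageal end. The array held 70 probes for 54 keratin genes, of which 15 genes passed with the esophagus higher, 11 passed with the stomach higher and 28 did not pass. Over all gene names, 7.15% passed in the first direction and 7.7% in the second. Without the members, the other 49 keratins split into 11 and 11, with a median difference of 0.09 against 0.03 for all genes. In 8 keratin genes the esophagus was higher by more than 8, and 4 of these were members, the others being Krt5 (11.93), Krt14 (11.30), Krt13 (11.00) and Krt15 (9.79). The differences of Krt6a, Krt6b and Krt17 are limited by the stomach background, and those of Krt5 and Krt15, with signal on 1 stomach array, and of Krt13 and Krt14, with signal on 2, in part, so no order is read among these genes. Of the 54 genes, 16 were at background on all 6 arrays.

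**Figure D2:**
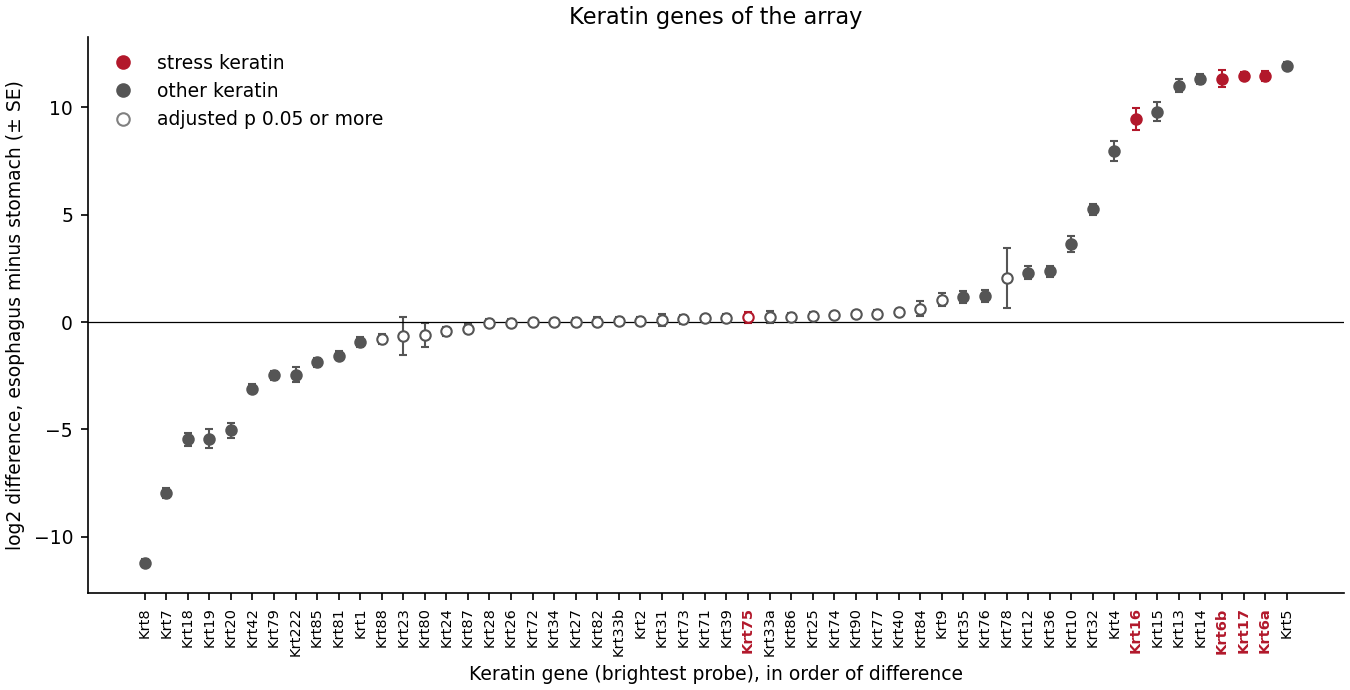
The log2 difference, esophagus minus stomach, ± SE (vertical axis) of the brightest probe of each of the 54 keratin genes, ordered by that difference, with members in red and open symbols for an adjusted p of 0.05 or more. Krt6a, Krt6b, Krt16 and Krt17 stand with Krt5, Krt13, Krt14 and Krt15 above 8, while Krt75 lies near 0 and Krt8 at -11.24.

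The members lie within the 2 keratin gene clusters of the mouse genome, and the RefSeq order of protein-coding genes shows which genes flank them. On chromosome 11 the order was Krt9, Krt14, Krt16, Krt17, Krt42 and Eif1. Krt14, Krt16 and Krt17 were all higher in the esophagus, whereas the neighbour Krt42 was higher in the stomach (-3.10, adjusted p = 5.1e-05 by its brightest probe, while its other probe lay at background). Krt9 differed by 1.05 and did not pass (adjusted p = 0.0836), nor did the translation initiation factor gene Eif1 beyond the cluster (0.24, adjusted p = 0.738). On chromosome 15 the order was Krt82, Krt90, Krt75, Gm5414, Krt6b, Krt6a, Krt5 and Krt71. Krt6b, Krt6a and Krt5 formed a run of 3 adjacent genes that were higher in the esophagus, and the genes on either side of it did not pass, Gm5414 at 0.42 (adjusted p = 0.124) and Krt71 at 0.18 (adjusted p = 0.552). The probes of Krt6b and Krt75 were 112718 bases apart on mm9.

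Of the other keratin classes, 7 of 9 stratified epithelium keratins were higher in the esophagus, 1 was higher in the stomach (Krt1, at least 1.72-fold, adjusted p = 0.0421) and 1, Krt78, did not pass, with a median difference of 7.96. Krt14, the usual type I partner of Krt5, read 16.31, 17.09 and 16.46 in the esophagus, and Krt13, the suprabasal partner of Krt4, read 16.60, 16.85 and 16.41. All 5 simple epithelium keratins, those of single-layered epithelia, were higher in the stomach, with a median of -5.47, led by Krt8 and by Krt7 (-7.96). None of the 8 inner root sheath keratins of the hair follicle passed in limma, and 0 had an unadjusted p under 0.05 (median 0.07), and 2 of them were well above background on any array. So few genes cannot set 0 calls apart from the shares over all gene names, 7.15% for the esophagus and 7.7% for the stomach.

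Some genes that accompany these keratins in activated skin keratinocytes were higher in the esophagus. Of 14 such genes, 13 were on the array. Of these, 5 were higher in the esophagus, 1 was higher in the stomach and 7 did not pass, with a median difference of 1.09. The shares of all gene names called in these directions were 7.15% and 7.7%. A count of 1 higher in the stomach is too small to set apart from that share. S100a9 and S100a8, which form the antimicrobial calprotectin, were higher in the esophagus by 10.35, with S100a9 well above background on 2 of 3 stomach arrays, and by at least 260-fold. Sprr1b, a cornified envelope precursor, was higher by at least 639-fold, which was 1355-fold without the esophagus of mouse 4 and 413-fold without that of mouse 2. Plaur, the urokinase receptor, was higher in the stomach (-3.97).

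Of 11 transcription factors and receptors linked to stress keratin expression in skin, by the brightest probe of each, 3 were higher in the esophagus, 1 was higher in the stomach and 7 did not pass, where 7.15% and 7.7% of all gene names were called in these directions. The median difference was 0.71. Fosl1, an AP-1 subunit, was higher by 2.89 (SE 0.64). Leaving out 1 array at a time gave from 2.38, without the esophagus of mouse 2, to 3.56, without the stomach of mouse 4. Junb, a second AP-1 subunit, was higher by 1.26 and Egfr, the EGF receptor, by 1.11. Another Egfr probe differed by 1.16 and did not pass in limma (adjusted p = 0.0615), while the remaining probe was higher by 1.46. The gene counted as higher in the stomach was Trp63, and by any of its other 3 probes, given above, the counts would be 4 and 0.

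Genes that anchor keratin filaments to junctions went mostly with the members. Of 7, 6 were higher in the esophagus and 1 did not pass, with a median of 3.10. The desmosomal plakophilin Pkp1 was higher by 7.34 (SE 0.55). Leaving out 1 array at a time gave Pkp1 differences from 6.99, without the stomach of mouse 2, to 8.03, without that of mouse 4. The hemidesmosomal plakin Dst was higher by 4.90 (SE 0.29) and the envelope plakin Evpl by 3.18 (SE 0.47), while Plec differed by 0.66 (adjusted p = 0.106). The 4 Dst probes disagreed, with 2 higher in the esophagus, 1 higher in the stomach and 1 not passing. None of 12 cell division genes passed in limma and 2 had an unadjusted p under 0.05 (median 0.37), a count too small to set apart from the same 7.15% and 7.7%. Ccnb1, the mitotic cyclin B1, differed by 0.92 (SE 0.41). Mki67, the Ki-67 antigen, read 11.95, 13.48 and 13.77 in the esophagus of mice 1, 2 and 4 and 13.35, 13.59 and 13.72 in the stomach, so its difference of -0.49 (SE 0.43) rested on the esophagus of mouse 1.

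The spread of the members among the esophagus arrays differed by gene. The esophagus of mouse 4 minus the mean of mice 1 and 2 was -1.97 for Krt16, so that mouse 4 was 3.93-fold lower. It was -1.43 for Krt6b, -1.44 for the shared probe and -0.77 for Krt6a, where mouse 4 was 1.71-fold lower. For Krt17 the same quantity was 0.05. Over the 22802 probes well above background on all 3 esophagus arrays, the same quantity had a median of 0.07. Among probes within 1 log2 unit of the same mean brightness, 0.81% lay as low in mouse 4 as Krt16, 0.984% as low as Krt6b, 3.91% as low as the shared probe and 1.85% as low as Krt6a, while 54.2% lay at or below Krt17. The SD of the 3 esophagus arrays was 1.15 for Krt16, 0.84 for Krt6b and 0.45 for Krt6a, where the median SD of like-bright probes was 0.19, 0.18 and 0.18. These shares are descriptions of 1 array against 2, and no test can be made.

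The array from the esophagus of mouse 4 was the only 1 of the 6 on a second slide, so mouse, culture and slide cannot be told apart in this contrast. On the processed signal of the scanner software, which was not quantile normalized, the difference of mouse 4 was -1.57 for Krt16 and -0.62 for Krt6a, and for Krt16 it stayed between -1.97 and -1.57 in all 5 versions of the values. Of all bright probes, 29.0% were lowest in the esophagus of mouse 4 and 42.0% were highest there. Among list genes with signal on all esophagus arrays, 7 of 7 keratin filament anchors, 7 of 10 keratinocyte activation genes, 6 of 9 stress keratin regulators, 4 of 7 stratified epithelium keratins, 3 of 6 squamous markers, 1 of 3 simple epithelium keratins, 1 of 3 immune and endothelial markers and 0 of 2 columnar stomach markers were lowest in mouse 4. The 1 immune marker was Cd68, a macrophage marker, which read 14.77, 12.94 and 11.80 in mice 1, 2 and 4 (mouse 4 minus the mean of the others -2.06). Sprr1b, chosen after the values were seen, read 15.05, 15.40 and 11.97 in the esophagus of mice 1, 2 and 4. Jun, chosen likewise, read 12.81, 15.74 and 9.89, so mice 1 and 2 differed as well. Of 12 cell division genes, 11 were highest in mouse 4, and all 12 were lowest in mouse 1, so this spread was not that of mouse 4 alone. Their median difference was 1.77 for mouse 4 minus mouse 1, 0.77 for mouse 4 minus mouse 2 and -0.93 for mouse 1 minus mouse 2. The part of what these genes share in the lower Krt16, Krt6b and Krt6a values was not tested. Without this array the Krt16 difference between tissues was 10.11 in place of 9.45.

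**Figure D3:**
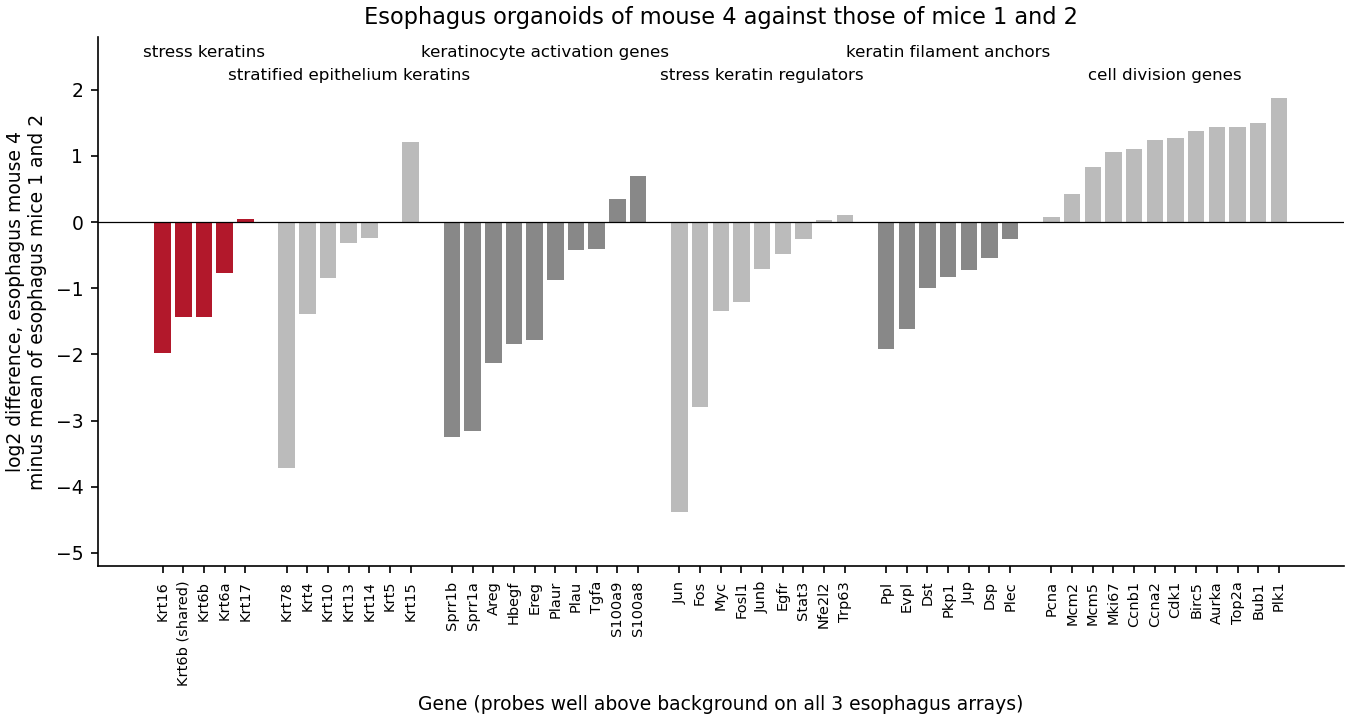
The log2 difference between the esophagus array of mouse 4 and the mean of those of mice 1 and 2 (bars, vertical axis) for the 5 member probes and for the genes of 5 lists that were well above background on all 3 esophagus arrays, sorted within each group. Krt16, both Krt6b probes and Krt6a lie below 0 and Krt17 at 0.05, while all 12 cell division genes, each lowest in mouse 1, lie above 0.

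The genes whose pattern over the 6 arrays was most like that of each member were sought among 16493 probes of 12200 named genes well above background on all esophagus arrays, by the root mean square difference of mean-centred log2 values. Krt6a, Krt6b and Krt17 were at background in the stomach and candidates were chosen by esophagus signal, so for these members likeness mostly reflects esophagus brightness above a shared background, and no order is read from it. Their 3 nearest genes came from Defb14, a beta-defensin, Krt14, Krt5, Krtdap, a keratinocyte differentiation-associated protein, and Slpi, a secreted protease inhibitor. Among the 3 genes nearest to Krt16 were the claudin Cldn17 and Gm5476. As Krt16 did, both read lower in the esophagus of mouse 4 than in that of mice 1 and 2. They were chosen for a pattern like that of Krt16 on these same arrays, so this likeness was set by the choice. For Krt75, well above background on 1 of the 6 arrays, the nearest were Krtap31-1 (0.076), Ggt6 (0.092) and Ppp1r12a (0.10), which shows only small differences of like sign.

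The size of the differences moved with the processing, and the calls of the members did not. Over 15 alternatives each, the difference ran from 10.26 to 14.70 for Krt6a, from 9.83 to 14.16 for Krt6b, from 7.05 to 11.47 for the shared probe, from 8.91 to 10.11 for Krt16 and from 10.05 to 14.49 for Krt17. The dim-probe filter, replicate block, trended robust variances and methods' threshold leave the difference itself unchanged. So do gene means for genes with 1 probe, and the ranges come from the other settings. The highest values of Krt6a, Krt6b and Krt17 came from the processed signal scaled to its 75th percentile, and the cause was not tested. The lowest Krt6b value came from averaging both Krt6b probes, and the highest Krt16 value from leaving out the esophagus of mouse 4. Among the 5 called probes, Krt16, with stomach signal above background, had the narrowest range.

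**Figure D4:**
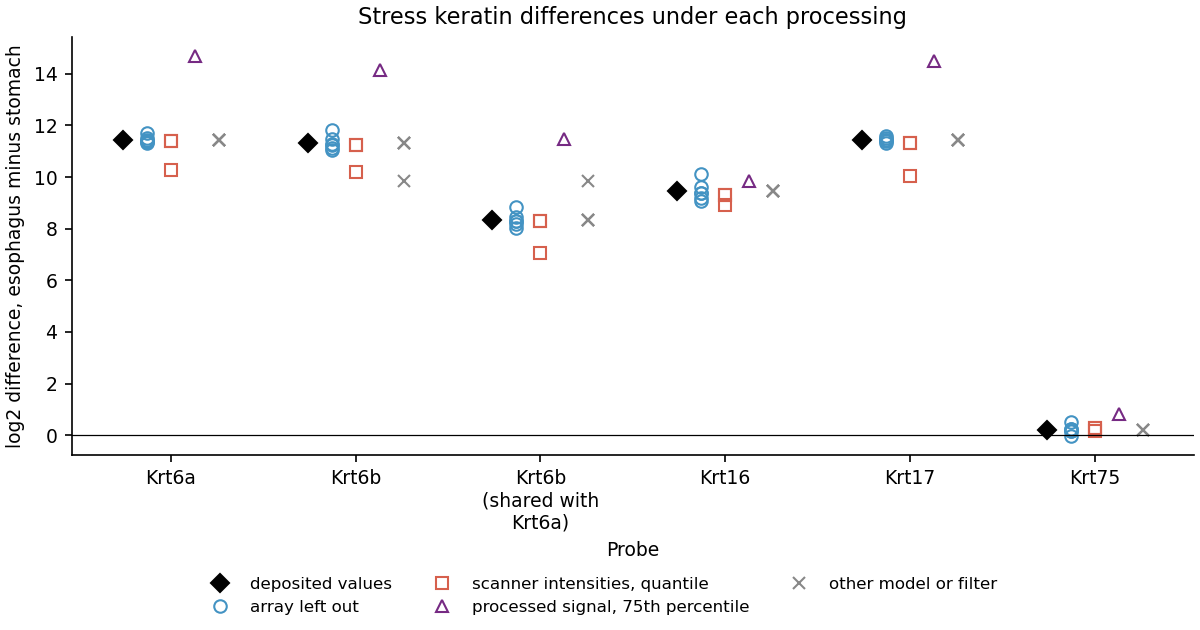
The log2 difference, esophagus minus stomach (vertical axis), of each of the 6 probes under the deposited values (black) and each alternative (coloured symbols). Krt6a, Krt6b and Krt17 rise above 14 on the processed signal, Krt16 stays between 8.91 and 10.11, and Krt75 stays between -0.02 and 0.82.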

How the data were processed

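Total RNA of 6 organoid cultures was labelled in a single color (Cy3) and hybridized to Agilent SurePrint G3 mouse arrays. The authors extracted intensities with Agilent Feature Extraction (11.5.1.1 per the file headers), corrected background and quantile normalized. The deposited log2 values were averaged per probe and are the main values. All 6 columns tracked their own array's scanner intensity values (Spearman 0.9898 or more, against at most 0.92 for other arrays), and the 2029 empty values were the spots marked as outliers. No spot was saturated, and 45.5 to 51.1% of probes were well above background. The number of arrays limits the precision.

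All 55681 non-control probes were fitted with limma 3.58.1 (R 4.3.3, lmFit and eBayes) without a block, two-sided, and p-values were adjusted over them by Benjamini-Hochberg. A gene counted by its brightest probe. The labels give the same mouse numbers in both tissues, read here as the same animals although no source states it outright, and deviations from the tissue means hardly correlated within a number (r = 0.025, 0.0119 and -0.00787). The procedure was tested on simulated data. Alternatives were scanner mean intensities with normexp (offset 16 or 50) and quantile normalization, with outlier spots kept or missing, the processed signal intensity minus its 75th percentile, a filter on dim probes, a replicate block, trended robust variances, gene means, the methods' threshold and leaving out each array.

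Named genes were every probe of the members, up to 4 genes per list (largest differences and partner keratins), and for each member the 3 genes of most similar pattern, of which 1 is not reported here. Other genes named were chosen after their values were seen. Members and lists were chosen with earlier results of these data known. Sequences come from the scanner annotation (mm9), and gene order from RefSeq (GRCm38.p6).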

Additional observations from a re-analysis of the deposited data

How the results depend on the processing

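The 5 called member probes kept their direction and stayed past the threshold under each of their 15 alternatives, and the number of called probes remained 5 wherever probes were counted and that of called genes 4. Krt75 passed under none of its 14 alternatives, and without esophagus replicate 2 its difference turned to -0.016 (adjusted p = 0.983). Leaving out 1 array at a time gave 11.30 to 11.71 for Krt6a, 11.03 to 11.80 for Krt6b, 8.01 to 8.82 for the shared probe, 9.06 to 10.11 for Krt16, 11.32 to 11.60 for Krt17 and -0.016 to 0.50 for Krt75. With the mouse number as a replicate block (paired fit) the differences were the same, the adjusted p was 1.34e-05 for Krt6a, 0.000226 for Krt16 and 6.92e-06 for Krt17, and no member's call changed, while list genes higher in the stomach went from 8 to 7. The processed signal shifted the median of all probes to 0.19 from 0.02, far less than the members' differences. Counts of keratin genes called ran from 13 to 17 for the esophagus (15 as reported) and from 10 to 13 for the stomach (11 as reported). Counts of genes of the non-marker lists ran from 16 to 24 for the esophagus (21 as reported) and from 6 to 8 for the stomach (8 as reported). The dim-probe filter left out Krt75. With 3 arrays a tissue and most members at background in the stomach, the folds of the called members are bounds, except that of Krt16. Quantile normalization gives all arrays the same highest values, which can narrow differences among the brightest probes. The recomputation of the difference between esophagus mouse 4 and mice 1 and 2 on other versions of the values was added after seeing the data, and the 5 probes recomputed, without Krt75, kept their sign there. The folds and bounds with other offsets, and the values of list genes without 1 array, were also computed after seeing the data.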
